A study of Mus musculus with 36 samples.

Results

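Cochleae of sham-operated CBA/Sca mice were compared between circadian time 04 (CT04) and circadian time 16 (CT16), early in the rest phase and early in the active phase of this night-active species. The members were defined by their labels: 3 libraries of sham CT04 and 3 of sham CT16, 6 of the 36 libraries of the series. The choice of this comparison and of the gene lists was made with earlier results of these data known. The cochlea is the hearing organ of the inner ear. In the series, 3 libraries each were made at 6 circadian times from sham-operated mice, which keep both adrenal glands, and from adrenalectomized (ADX) mice, which lack the adrenal source of glucocorticoids. The series asks, by its title, which circadian genes of the cochlea depend on glucocorticoids. All mice were of strain CBA/Sca and aged 12 weeks, and sham CT04 and sham CT16 shared strain, age, operation and tissue and differed in the labelled circadian time. The labels do not give the lighting, the time since surgery or how many animals went into a library.

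The mammalian clock is a transcriptional loop in which BMAL1 (gene Arntl) pairs with CLOCK or NPAS2 and switches on the period and cryptochrome genes, whose proteins then block that pair. The nuclear receptors REV-ERB (Nr1d1, Nr1d2) repress and ROR (Rora and Rorb among them) activate Arntl and its partners, and the PAR bZIP factors Dbp, Tef and Hlf carry the rhythm to output genes. Body temperature and adrenal glucocorticoids, both higher when the animal is active, are known to reach peripheral clocks, the first through heat shock and cold-inducible genes.

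Libraries held 26749868, 27969064 and 28995197 counts at CT04 and 28963757, 24092100 and 25819420 at CT16, so depth was similar in the 2 groups. Levels are given as counts scaled to the size of the library (CPM), which are not corrected for gene length and are therefore compared between libraries and not between genes. Defining cochlear genes were present in every library, with Coch, the main extracellular protein of spiral ligament fibrocytes, at 3910 to 5534 CPM and Otof, of the inner hair cell synapse, at 76.3 to 113 CPM. Blood and marrow were also present, since the globin gene Hbb-bs measured 9372 to 15421 CPM. The CT16 library numbered replicate 3 stood apart: its 9 pituitary genes summed to 1547 CPM, against 1.54 to 13.0 CPM in the other 5 libraries, and the mucosal gene Bpifb1 measured 599 CPM against at most 0.644. Replicate 1 of CT16 had the highest sum of 7 central myelin genes, 286 CPM against 76.1 to 132 in the others. Results that rest on the third CT16 library are given with and without it.

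The comparison of CT16 with CT04 asks which transcripts differ between rest and activity when the adrenals are present. Of 22556 genes tested, 1190 (5.28%) passed an adjusted p of 0.05 in edgeR's quasi-likelihood test, and these are called here. At CT16, 576 genes were higher (2.55% of those tested) and 614 were lower (2.72%). Most changes were small: the median size over called genes was 0.34 on the log2 scale, 308 genes changed by more than 1.5-fold (190 higher and 118 lower) and 119 by more than 2-fold (77 higher and 42 lower). Of these 119, the call stood for 46, 68 and 57 without CT04 replicate 1, 2 or 3, and for 78, 69 and 48 (33 higher and 15 lower) without CT16 replicate 1, 2 or 3. At an unadjusted p under 0.05 the count over all tested genes was 4419 (19.6%). The CT04 and CT16 values did not overlap in 98.3% of called and 24.8% of all tested genes, so such separation adds little to a call. Clock genes stood on both sides, chaperones among the higher genes, and Cirbp, Lpl, Spon2 and Adra2c among the lower ones. The count moved with single libraries. Without CT16 replicate 3 it was 501 (2.19% of 22924), without CT04 replicate 1 it was 518, without CT16 replicate 2 it was 601 and without CT04 replicate 3 it was 709, and 319 of the 1190 genes (171 higher and 148 lower) kept the call whichever 1 of the 6 libraries was removed. Some calls also share reads: counted once per set of neighbouring genes within 100000 bases whose counts differed by at most 1 count or 10% in every library of the series, the calls numbered 1176.

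Of 20 clock genes 7 were called, some higher and some lower at CT16. Over all tested genes 5.28% were called. Among the activators, Arntl and Npas2 fell. Npas2 measured 16.7, 20 and 14.9 CPM at CT04 and 5.51, 5.98 and 4.40 CPM at CT16. Its groups lay far apart, with a log2 fold change of -1.70 ± 0.24 (SE, 3 against 3 libraries), or 3.25-fold lower (adjusted p = 2.8e-05). Arntl measured 24.5, 30.7 and 27.0 CPM at CT04 and 13.1, 16.8 and 12.5 CPM at CT16. Every CT16 value lay below every CT04 value, with a log2 fold change of -0.96 ± 0.15 (adjusted p = 0.00012). Clock, the partner of Arntl, differed by 0.04 ± 0.07 (adjusted p = 0.823) and Arntl2, a relative of Arntl, by 0.00 ± 0.17, both with overlapping groups.

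Among the period and cryptochrome repressors, 3 of 5 rose. Per2 measured 19, 27.4 and 24.6 CPM at CT04 and 89.6, 83.7 and 94.4 CPM at CT16. This was the largest rise of any clock gene, 3.76-fold (log2 1.91 ± 0.14, adjusted p = 7.2e-10), and the groups did not overlap. Per3 measured 46.6, 52.4 and 59.1 CPM at CT04 and 99.1, 95.7 and 101 CPM at CT16, a log2 fold change of 0.90 ± 0.16 (adjusted p = 0.00074). Cry1, whose protein closes the loop late, measured 13.8, 15.5 and 12.8 CPM at CT04 and 26.4, 26.4 and 28.7 CPM at CT16, a rise of 0.95 ± 0.10 (adjusted p = 6.1e-07). Per1, which also responds directly to glucocorticoids, measured 48.4, 51.2 and 48.5 CPM at CT04 and 82.1, 51.0 and 66.6 CPM at CT16. One CT16 library lay within the CT04 range, and the difference of 0.43 ± 0.14 did not pass (adjusted p = 0.0782). With DESeq2 it did (adjusted p = 0.0481). Cry2 differed by 0.12 ± 0.07 and did not pass.

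**Figure D1:**
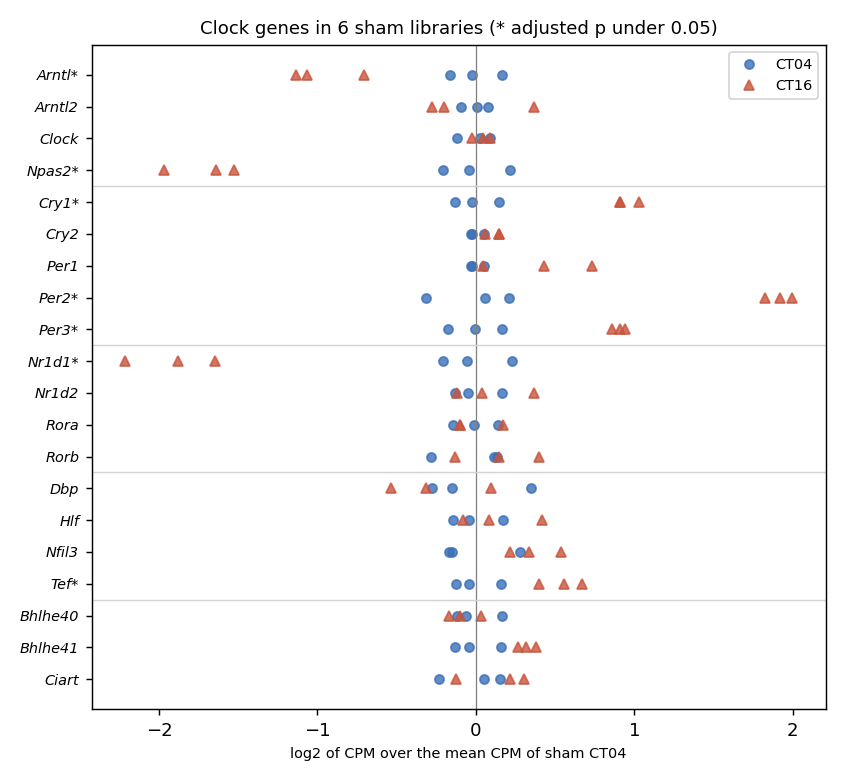
Each row is a clock gene and each point a library of sham CT04 (blue circles) or sham CT16 (red triangles); the x axis is log2 of its CPM over the mean CPM of the 3 CT04 libraries, and an asterisk marks an adjusted p under 0.05. Npas2, Arntl and Nr1d1 lie to the left at CT16 and Per2, Cry1, Per3 and Tef to the right.

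In the nuclear receptor loop Nr1d1 fell. Nr1d1, which encodes the repressor REV-ERB alpha, measured 74.7, 83.0 and 101 CPM at CT04 and 27.5, 18.6 and 23.4 CPM at CT16. That is 3.72-fold lower (log2 -1.90 ± 0.23, adjusted p = 2.1e-06), with no overlap. Its relative Nr1d2 did not follow: it measured 75.7, 80.3 and 93.1 CPM at CT04 and 107, 76.4 and 85.3 CPM at CT16 (0.11 ± 0.14, adjusted p = 0.726). Rora and Rorb differed by -0.00 ± 0.08 and 0.15 ± 0.17 and did not pass. Of the output factors, Tef measured 138, 146 and 168 CPM at CT04 and 240, 199 and 222 CPM at CT16 (0.55 ± 0.12, adjusted p = 0.00476). Dbp, its close relative, measured 27.9, 25.6 and 39.5 CPM at CT04 and 33.1, 21.4 and 24.9 CPM at CT16, and the groups overlapped (-0.23 ± 0.26, adjusted p = 0.686). Hlf, Nfil3 and the accessory repressors Bhlhe40, Bhlhe41 and Ciart did not pass either, with differences from -0.08 to 0.37, although DESeq2 called Bhlhe41 (0.32, adjusted p = 0.0498). All 7 of these clock calls held in each of the 6 fits without 1 library.

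Clock proteins bind known short elements, so the 250 bases before the start of each called clock gene were read from RefSeq promoters (GRCm38.p6), on both strands. The table held 8 promoters of 6 of the 7 genes. The E-box CACGTG, bound by CLOCK and BMAL1, was in 3 of them (37.5%, in Cry1 and Tef), against 6.02% of 32851 promoters of all genes. The D-box TTATGTAA, bound by the PAR bZIP factors and NFIL3, was in 1 (12.5%, Per3), against 0.819%. None of the 8 promoters held TAGGTCA, an element read by REV-ERB and ROR (2.23% of all), or TGACGTCA, the cyclic AMP response element (1.55% of all). The promoter of Per3, at chr4:151044666-151044915 on the minus strand, is shown because it holds the D-box in 2 copies, starting 205 and 158 bases before the start. That of Cry1, at chr10:85185055-85185304 on the minus strand, is shown for its E-box, 60 bases before the start. Capitals mark the D-boxes and the E-box.
Per3: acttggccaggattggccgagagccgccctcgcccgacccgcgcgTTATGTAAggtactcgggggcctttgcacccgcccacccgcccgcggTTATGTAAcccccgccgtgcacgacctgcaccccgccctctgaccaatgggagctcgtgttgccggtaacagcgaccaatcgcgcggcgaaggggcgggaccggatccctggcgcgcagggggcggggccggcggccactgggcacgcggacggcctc
Cry1: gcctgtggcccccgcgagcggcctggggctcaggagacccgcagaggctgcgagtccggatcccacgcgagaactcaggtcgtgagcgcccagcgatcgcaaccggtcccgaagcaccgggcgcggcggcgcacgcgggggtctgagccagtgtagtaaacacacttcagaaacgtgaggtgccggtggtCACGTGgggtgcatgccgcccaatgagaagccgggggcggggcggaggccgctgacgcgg

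Heat shock proteins and their cytosolic partners rose as a group: 18 of 20 list members were called higher and none lower. Over all tested genes 2.55% were called higher. The median log2 fold change was 0.60, against -0.0017 over all tested genes. The list was chosen with earlier results of these data known, so these counts are a description. The summed level of its members was 3870 to 4130 CPM at CT04 and 5859 to 6254 CPM at CT16. The small heat shock protein Hspb1, which holds unfolded proteins and binds actin, measured 20.4, 25.6 and 24.5 CPM at CT04 and 53.9, 65.7 and 66.5 CPM at CT16. It rose 2.64-fold (log2 1.40 ± 0.14, adjusted p = 1.2e-07), with all CT16 libraries above all CT04 libraries. Hsph1, a nucleotide exchange factor for Hsp70, measured 107, 136 and 109 CPM at CT04 and 251, 279 and 270 CPM at CT16 (1.19 ± 0.11, adjusted p = 4.2e-08). The inducible Hsp70 gene Hspa1b measured 3.37, 4.44 and 5.30 CPM at CT04 and 16, 15.6 and 17.8 CPM at CT16 (1.91 ± 0.24, adjusted p = 5.7e-06). Its near-identical copy Hspa1a rose by 1.06 ± 0.20, and how reads were divided between the copies is not known, so the separate values are uncertain.

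The abundant constitutive chaperones rose as well. Hspa8, the constitutive Hsp70, measured 534, 618 and 543 CPM at CT04 and 959, 1017 and 1006 CPM at CT16 (0.82 ± 0.07, adjusted p = 6.6e-09). Hsp90ab1, the main cytosolic Hsp90, measured 1288, 1292 and 1236 CPM at CT04 and 1852, 2019 and 2010 CPM at CT16 (0.62 ± 0.06, adjusted p = 4.2e-08). In both genes the lowest CT16 value was far above the highest CT04 value. Hsp90aa1, the inducible Hsp90, rose by 0.78 ± 0.07, and its cochaperones Chordc1, Stip1 and Ahsa1 by 0.73 ± 0.07, 0.61 ± 0.06 and 0.44 ± 0.05. The mitochondrial pair Hspd1 and Hspe1 rose by 0.41 ± 0.06 and 0.43 ± 0.08. Bag3, a cochaperone of selective autophagy, and Cryab, a small heat shock protein, differed by 0.09 ± 0.09 and 0.20 ± 0.09 and did not pass. Of the 18 calls, 15 held in all 6 fits without 1 library. The others were lost when single libraries of either group were left out: Dnajb1 (0.33 ± 0.09, adjusted p up to 0.146) in all fits but that without CT04 replicate 2, Dnajb4 (0.23 ± 0.06, up to 0.106) in all but those without CT04 replicate 2 or CT16 replicate 3, and Hspa4 (0.16 ± 0.05, 0.0527 to 0.197) in all 6.

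**Figure D2:**
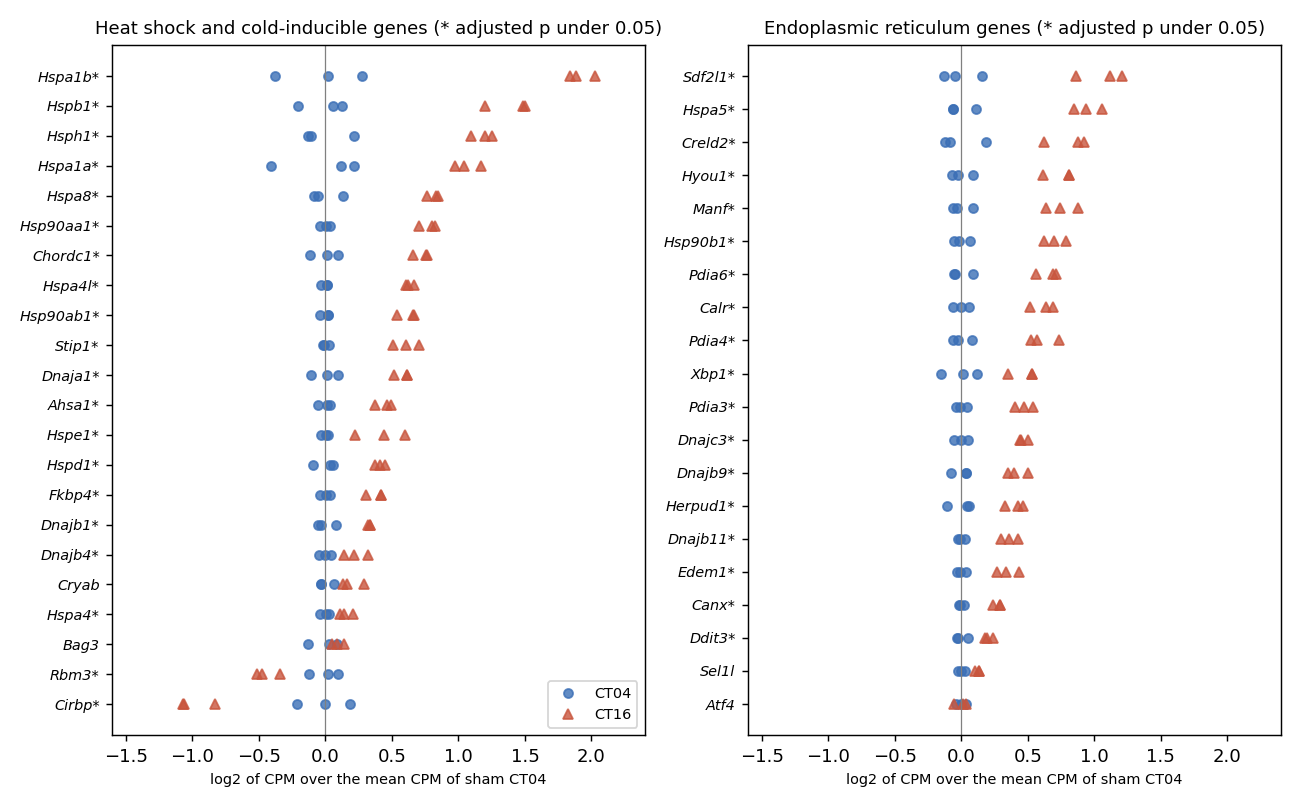
Rows are the members of the heat shock and cold-inducible lists (left) and of the endoplasmic reticulum list (right), points are sham CT04 (blue circles) and sham CT16 (red triangles) libraries, and the x axis is log2 of CPM over the mean CPM of the 3 CT04 libraries; an asterisk marks an adjusted p under 0.05. Nearly all chaperones lie to the right at CT16 without overlap, while Cirbp and Rbm3 lie to the left. Over all tested genes the groups did not overlap in 24.8%.

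Heat shock factor binds inverted repeats of GAA, so both arrangements of 2 repeats, TTCNNGAA and GAANNTTC, were searched in the same windows. TTCNNGAA was in 5 of 21 promoters (23.8%) of 15 called heat shock genes, against 7.17% of promoters of all genes. It lay in Dnajb4, Hspd1, Hspe1 and Hsph1. The same Hsph1 repeat was counted in 2 overlapping windows, so promoters are not independent and shares are of windows, not of separate sites. GAANNTTC, added after the promoters had been seen, was in 7 (33.3%), against 6.69%. One or the other was in 10 of the 21 (47.6%), against 12.8% of promoters of all genes and 10.4% of those of tested genes. The genes were Dnaja1, Dnajb4, Fkbp4, Hspa1a, Hspa1b, Hspb1, Hspd1, Hspe1 and Hsph1. Among promoters of all genes called higher at CT16 the share was 10.6%, and among those called lower 9.01%. Hspb1, at chr5:135887669-135887918 on the plus strand, and Hsph1, at chr5:149636337-149636586 on the minus strand, are shown as the called genes with the clearest rise outside the duplicated Hspa1a and Hspa1b. In Hspb1 the repeats start 117 and 97 bases before the start, and in Hsph1, in the first of its 2 windows in the table, the repeat starts 33 bases before it. The 2 arrangements can overlap in a run of 3 repeats. Capitals mark the repeats.
Hspb1: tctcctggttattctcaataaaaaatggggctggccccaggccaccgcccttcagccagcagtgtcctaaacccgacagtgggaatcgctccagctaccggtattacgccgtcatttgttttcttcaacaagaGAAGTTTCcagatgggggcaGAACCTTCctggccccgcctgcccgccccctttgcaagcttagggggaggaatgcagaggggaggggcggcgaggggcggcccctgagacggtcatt
Hsph1: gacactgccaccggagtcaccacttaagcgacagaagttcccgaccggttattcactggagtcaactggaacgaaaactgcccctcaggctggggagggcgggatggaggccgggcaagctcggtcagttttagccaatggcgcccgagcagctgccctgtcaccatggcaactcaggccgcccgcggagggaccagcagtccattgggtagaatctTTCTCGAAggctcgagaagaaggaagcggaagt

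Genes for protein folding in the endoplasmic reticulum rose in the same way: 18 of 20 members were called higher, none lower, with a median of 0.48. Over all tested genes 2.55% were called higher. This list, too, was chosen with earlier results of these data known, so the counts are a description. The summed level of its members was 3895 to 4140 CPM at CT04 and 5634 to 6188 CPM at CT16. Hspa5, which encodes BiP, the Hsp70 of this compartment, measured 459, 517 and 459 CPM at CT04 and 860, 997 and 918 CPM at CT16. It rose 1.93-fold (log2 0.95 ± 0.07, adjusted p = 8e-10), with the groups far apart. Sdf2l1, a BiP partner, measured 20.8, 25.3 and 22 CPM at CT04 and 41.3, 52.4 and 49.4 CPM at CT16 (1.07 ± 0.10, adjusted p = 4.4e-08). Hyou1, which recycles BiP, measured 147, 164 and 152 CPM at CT04 and 236, 270 and 270 CPM at CT16 (0.75 ± 0.06, adjusted p = 1.5e-08). The secreted stress factor Manf rose by 0.75 ± 0.07 (adjusted p = 1.9e-08), and Hsp90b1, the Hsp90 of this compartment, by 0.71 ± 0.08.

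Calr and Canx, the lectin chaperones of glycoprotein folding, rose by 0.62 ± 0.06 and 0.27 ± 0.04, and the disulphide isomerases Pdia3, Pdia4 and Pdia6 by 0.47 ± 0.07, 0.61 ± 0.06 and 0.65 ± 0.07. Xbp1, a transcription factor of the unfolded protein response, measured 115, 139 and 129 CPM at CT04 and 163, 185 and 185 CPM at CT16 (0.48 ± 0.06, adjusted p = 1.2e-06). Its highest CT04 value lay below its lowest CT16 value. Atf4, a factor of the arm of the response that slows translation, measured 162, 171 and 166 CPM at CT04 and 160, 171 and 168 CPM at CT16 (-0.00 ± 0.05, adjusted p = 0.985), with overlapping groups. Ddit3, an Atf4 target linked to cell death, rose by 0.21 ± 0.06 (adjusted p = 0.0388), a call that stood in 1 of the 6 fits without 1 library, where adjusted p ran from 0.0473 to 0.155. It was lost without CT04 replicate 1 or 3 and without any of the 3 CT16 libraries. The other 17 calls held in all 6. Sel1l, of the degradation complex, differed by 0.12 ± 0.05 and did not pass.

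The endoplasmic reticulum stress element is CCAAT and CCACG separated by 9 bases, a reading added after the promoters had been seen. It was in 7 of 16 promoters (43.8%) of 16 called genes of this list, namely Calr, Canx, Creld2, Dnajc3, Hsp90b1, Hspa5 and Pdia6. The same letters were in 37 of 32851 promoters of all genes (0.113%) and in 22 of 17496 promoters of tested genes (0.126%). Of 500 promoters of genes called higher at CT16, 10 held it (2%), and of 544 promoters of genes called lower, 0. Outside the list, the 3 called genes that held it were Alg12, of glycan assembly (0.22 ± 0.06), Derl3, of endoplasmic reticulum degradation (0.89 ± 0.13), and Zfp57 (0.54 ± 0.14), named here after their values were seen. The element TGACGTGG, read by XBP1 and ATF6, was in none of the 16, against 0.563% of all promoters. Hspa5, at chr2:34771840-34772089 on the plus strand, is shown with its element 65 bases before the start. Hsp90b1, at chr10:86705445-86705694 on the minus strand, is shown because it holds 2, starting 212 and 107 bases before the start, the second read on the opposite strand. Capitals mark the element's outer parts.
Hspa5: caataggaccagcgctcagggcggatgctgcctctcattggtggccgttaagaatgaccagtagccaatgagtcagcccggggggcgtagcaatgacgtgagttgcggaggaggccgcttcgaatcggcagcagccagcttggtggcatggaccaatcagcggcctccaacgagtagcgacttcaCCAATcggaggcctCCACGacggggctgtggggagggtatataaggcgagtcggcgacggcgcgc
Hsp90b1: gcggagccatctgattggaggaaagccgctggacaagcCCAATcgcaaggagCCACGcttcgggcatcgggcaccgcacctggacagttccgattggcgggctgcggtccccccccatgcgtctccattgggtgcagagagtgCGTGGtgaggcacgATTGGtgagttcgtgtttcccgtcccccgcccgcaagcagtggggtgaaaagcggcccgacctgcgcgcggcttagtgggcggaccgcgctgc

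Both cold-inducible genes fell. Cirbp, an RNA-binding protein raised by mild cooling, measured 124, 94.2 and 109 CPM at CT04 and 61.4, 52.1 and 52.2 CPM at CT16. The groups did not overlap, and the log2 fold change was -0.98 ± 0.12 (adjusted p = 1.7e-06). Rbm3, a second such protein, measured 162, 139 and 154 CPM at CT04 and 120, 106 and 109 CPM at CT16 (-0.44 ± 0.11, adjusted p = 0.0128). The call for Rbm3 was lost without CT04 replicate 1, CT16 replicate 2 or CT16 replicate 3, and adjusted p over the 6 fits ran from 0.0134 to 0.0838.

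Of 24 genes known to be induced by glucocorticoids, 2 rose and 1 fell, with a median of 0.18. That is 12.5% called, against 5.28% of all tested genes. Tsc22d3, which encodes the anti-inflammatory protein GILZ, measured 73.8, 81.3 and 78.8 CPM at CT04 and 168, 114 and 141 CPM at CT16 (0.86 ± 0.12, adjusted p = 3.6e-05). Fkbp5, a chaperone partner that damps the glucocorticoid receptor, measured 38.2, 40.5 and 37.7 CPM at CT04 and 81.3, 57.7 and 68.6 CPM at CT16 (0.84 ± 0.22, adjusted p = 0.0203). In both genes all CT16 values exceeded all CT04 values, with replicate 1 the highest and replicate 2 the lowest. The call for Fkbp5 stood in 2 of the 6 fits without 1 library, was lost without replicate 1 or 3 of either time, and had adjusted p from 0.0251 to 0.085. Zbtb16 measured 17.7, 29.8 and 20.7 CPM at CT04 and 55.5, 27.7 and 40.4 CPM at CT16, with overlapping groups (0.86 ± 0.32, adjusted p = 0.122). Cdkn1a, a brake on the cell cycle, fell by 0.30 on the log2 scale (SE 0.08, adjusted p = 0.0191). Its call stood in 2 of the 6 fits and was lost without CT04 replicate 1 or 2 or CT16 replicate 2 or 3 (adjusted p up to 0.0886). Dusp1, Sgk1, Klf9 and Ddit4, other classical targets, differed by 0.04 ± 0.11, 0.13 ± 0.09, 0.17 ± 0.11 and 0.10 ± 0.14 and did not pass. Positive values were found for 21 of the 24 genes, and uncalled values ran from -0.37 to 0.95. In edgeR 13 of the 24 had an unadjusted p under 0.05, against 19.6% of all tested genes. Without CT16 replicate 3 the number was 10.

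In the list of P450, flavin monooxygenase and conjugation genes, 5 of 14 rose and none fell, with a median of 0.30. Over all tested genes 2.55% were called higher. Cyp2a5, a P450 of coumarin and nicotine metabolism, measured 0.910, 1.11 and 1.05 CPM at CT04 and 4.37, 3.61 and 3.82 CPM at CT16. This was the largest fold among the genes named here that were called higher with groups that did not overlap, 3.83-fold (log2 1.94 ± 0.36, adjusted p = 0.0012), at a low level and with a closely similar gene, Cyp2a4, that may share its reads. The flavin monooxygenase Fmo2 measured 11, 12 and 13.5 CPM at CT04 and 31.0, 30.9 and 30.8 CPM at CT16 (1.33 ± 0.17, adjusted p = 4.8e-06). Fmo1 rose by 0.86 ± 0.10 (adjusted p = 1.6e-06). These 3 calls held in all 6 fits without 1 library. Gsta3 (0.65 ± 0.17) and Por (0.19 ± 0.06), the reductase that feeds P450s, were called in 2 and 0 of those fits, with adjusted p up to 0.121 and 0.209. The libraries whose loss ended the call were CT04 replicates 1 and 3 and CT16 replicates 2 and 3 for Gsta3, and every library for Por.

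Among called genes with a mean of at least 1 CPM and groups apart, the largest falls outside the clock list were in genes of diverse roles. Spon2, a secreted matrix protein, measured 7.96, 8.27 and 8.26 CPM at CT04 and 2.98, 3.36 and 2.86 CPM at CT16 (-1.41 ± 0.13, adjusted p = 4.2e-08). Adra2c, an adrenergic receptor, measured 11.6, 11 and 10.9 CPM at CT04 and 4.92, 4.69 and 4.82 CPM at CT16 (-1.22 ± 0.14, adjusted p = 1.2e-06). Both genes were tightly grouped at each time. Lpl, the lipase that releases fatty acids from circulating lipoproteins, measured 173, 138 and 131 CPM at CT04 and 59.1, 71.5 and 73.3 CPM at CT16 (-1.12 ± 0.15, adjusted p = 1.1e-05). Mmp3, a matrix protease, fell 4.19-fold (-2.07 ± 0.30, adjusted p = 5.3e-05), from 1.63, 2.86 and 2.82 CPM to 0.693, 0.291 and 0.733 CPM. Btn1a1, Klhdc9 and Lrrc29 fell by 1.37, 1.08 and 1.07 on the log2 scale. All 7 of these calls held without each library in turn. Hkdc1 (-1.19 ± 0.27) was lost without CT16 replicate 3 (adjusted p = 0.0624), the unmatched gene ENSMUSG00000098872 (-1.06 ± 0.25) without CT04 replicate 1 or CT16 replicate 3 (up to 0.0932), and C2cd4b (-1.24 ± 0.35) in all 6 fits (0.0693 to 0.106).

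Under the same limits, the highest folds outside the clock and chaperone lists and the list with P450 genes were those of 6 genes of low level. Sftpa1 (1.62 ± 0.45), Gpr17 (1.32 ± 0.38), the pseudogene Cbx3-ps7 (1.27 ± 0.32), Garem2 (1.22 ± 0.34) and Cd200r3 (1.21 ± 0.28) were each called, with at most 4.16 CPM in any of the 6 libraries. Their calls stood in 1, 1, 4, 3 and 4 of the 6 fits, and each of the 5 was lost without CT04 replicate 1. Other libraries whose loss ended a call were CT04 replicates 2 and 3 (Sftpa1 and Gpr17), CT04 replicate 3 (Garem2 and Cd200r3), CT16 replicate 1 (all but Cd200r3), CT16 replicate 2 (Gpr17) and CT16 replicate 3 (Sftpa1). The highest adjusted p reached without 1 library was 0.141, 0.199, 0.114, 0.251 and 0.0636 in that order. Gm20627, a processed transcript (1.11 ± 0.20), was called in all 6. Gpr17 marks precursors of myelin-forming cells of the brain, and it was highest, at 4.16 CPM, in CT16 replicate 1, the library with the highest central myelin sum. The part of carried-over brain tissue in this value was not tested.

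Among the lists of cochlear cell types, that of the stria vascularis alone held calls. None of 19 hair cell, 15 spiral ganglion neuron, 7 neurotrophin and receptor, 11 tectorial membrane and fibrocyte or 11 Schwann cell myelin genes was called by edgeR or by DESeq2. At an unadjusted p under 0.05 in edgeR the counts were 2, 0, 1, 2 and 4, to be read against 19.6% of all tested genes. Otof measured 93.2, 113 and 80.1 CPM at CT04 and 76.3, 81.0 and 93.3 CPM at CT16 (-0.19 ± 0.18), and Coch differed by -0.01 ± 0.13. In the stria vascularis, the tissue that secretes endolymph, 2 of 13 genes fell and 1 rose, with a median of -0.24. The calls made up 23.1% of the list, against 5.28% of all tested genes. Negative values were found for 11 of the 13, and 8 had an unadjusted p under 0.05. Kcne1, the subunit of its apical potassium channel, measured 131, 148 and 138 CPM at CT04 and 109, 105 and 102 CPM at CT16 (-0.40 ± 0.10, adjusted p = 0.017). Slc26a4, the anion exchanger pendrin, measured 153, 181 and 174 CPM at CT04 and 150, 118 and 132 CPM at CT16 (-0.35 ± 0.10, adjusted p = 0.0433). Esrrb, a nuclear receptor of marginal cells, rose by 0.33 ± 0.09 (adjusted p = 0.0368). The groups were apart in all 3, as in 98.3% of called and 24.8% of all tested genes, and none of the calls was stable. Kcne1 was lost without CT04 replicate 2 or CT16 replicate 2 or 3 (adjusted p up to 0.0798). Slc26a4 was lost without replicate 2 or 3 of either time (up to 0.215) and Esrrb in all 6 fits (0.0542 to 0.127). In a whole organ, fewer cells of a type and less RNA per cell cannot be told apart.

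In the extracellular matrix list 4 of 16 genes fell and none rose, with a median of -0.30. That is 25% called lower, against 2.72% of all tested genes. In edgeR 10 of the 16 had an unadjusted p under 0.05 (19.6% over all tested genes), and 6 without CT16 replicate 3. Fbn1, the main protein of microfibrils, measured 91.0, 78.2 and 79.6 CPM at CT04 and 55.0, 56.1 and 54.9 CPM at CT16 (-0.58 ± 0.13, adjusted p = 0.00607), and its call held in all 6 fits. Col9a1, a cartilage and tectorial membrane collagen, fell by 0.74 on the log2 scale and Col6a1 by 0.52. The call for Col9a1 was lost without CT16 replicate 2 or 3 (adjusted p up to 0.0622) and that for Col6a1 without CT04 replicate 1 or CT16 replicate 2 (up to 0.0975). Lox, which cross-links collagen, fell by 0.38 (adjusted p = 0.0457) and was called in 1 of the 6 fits (up to 0.181), the one without CT16 replicate 1. Of 14 osteoblast and osteocyte genes, Phex alone was called (-0.51 ± 0.15, adjusted p = 0.037), again in 1 fit (up to 0.16), the one without CT16 replicate 1. That is 7.14% of the list, against 5.28% of all tested genes.

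In the B lymphocyte, T and NK lymphocyte and neutrophil lists 7.14%, 13.3% and 7.14% of genes were called, against 5.28% of all tested genes. None of 12 erythroid or 11 macrophage genes was called. Cr2, the complement receptor of mature B cells and follicular dendritic cells, measured 3.71, 5.51 and 4.93 CPM at CT04 and 8.0, 10.6 and 10.6 CPM at CT16 (1.04 ± 0.17, adjusted p = 0.00019). It was the 1 called gene of 14 B lymphocyte genes, and its call held in all 6 fits. All 15 T and NK lymphocyte genes had positive log2 fold changes, with a median of 0.46 and a summed level of 78.4 to 86.1 CPM at CT04 and 92.3 to 116 CPM at CT16. In edgeR 9 of the 15 had an unadjusted p under 0.05 (19.6% over all tested genes), and 4 without CT16 replicate 3. The 2 called ones, Cd8a (0.94 ± 0.28, adjusted p = 0.0431) and Gzma (0.79 ± 0.20, adjusted p = 0.0179), were called in 1 and 3 of the 6 fits (up to 0.195 and 0.143). Both were lost without CT04 replicate 1, CT04 replicate 2 or CT16 replicate 3, and Cd8a also without CT04 replicate 3 or CT16 replicate 2. Neutrophil genes summed to 7953 to 8646 CPM at CT04 and 8126 to 11063 CPM at CT16, highest in the third CT16 library, and 1 of 14, Cxcr2, was called (0.45 ± 0.14, adjusted p = 0.0467). Without that library its adjusted p was 0.261, and the call stood in 1 of the 6 fits, that without CT16 replicate 1. The 12 interferon-stimulated genes all had negative values, with a median of -0.34. None was called by edgeR, 2 had an unadjusted p under 0.05, and DESeq2 called Mx1. Their sum was highest in CT04 replicate 1, at 381 CPM, against 214 to 262 CPM in the other 5 libraries.

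Sterol synthesis, immediate early, cell cycle and cytosolic ribosomal protein lists, with 22, 14, 16 and 85 tested members, held no call by edgeR, while 4, 2, 0 and 10 members had an unadjusted p under 0.05 (19.6% over all tested genes). DESeq2 called Insig1 and Srebf2 of the first list and Rpl3, Rpl22 and Rplp1 of the last, each lower by at most 0.34 on the log2 scale. Srebf1, which drives fatty acid synthesis, fell by 0.28 (SE 0.07, adjusted p = 0.0111), a call lost without CT04 replicate 3 (adjusted p = 0.053), and with Lpl it made 2 of 18 genes called in the fatty acid and adipocyte list. Among 12 antioxidant genes Nqo1 fell by 0.37 (adjusted p = 0.00578, and 0.0649 without CT16 replicate 3), while Nfe2l2, which encodes NRF2, rose by 0.17 with a call lost in all 6 fits (up to 0.156). These calls made up 16.7% of the list, against 5.28% of all tested genes. Of 75 oxidative phosphorylation subunits, Ndufv3 alone was called (1.33%, against 5.28% of all tested genes). It fell (-0.19 ± 0.05, adjusted p = 0.0294, and up to 0.129 without CT04 replicate 1 or 2 or CT16 replicate 1 or 3). Negative values were found for 69 of the 75, around a median of -0.07. The 5 called pituitary genes (Gh, Prl, Cga, Fshb and Ghrhr) and Bpifb1 were called through CT16 replicate 3 alone, with 0 of them called without it and 0 pituitary genes at an unadjusted p under 0.05. Gh measured 9.02, 0.823 and 2.52 CPM at CT04 and 4.64, 4.86 and 1180 CPM at CT16.

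**Figure D3:**
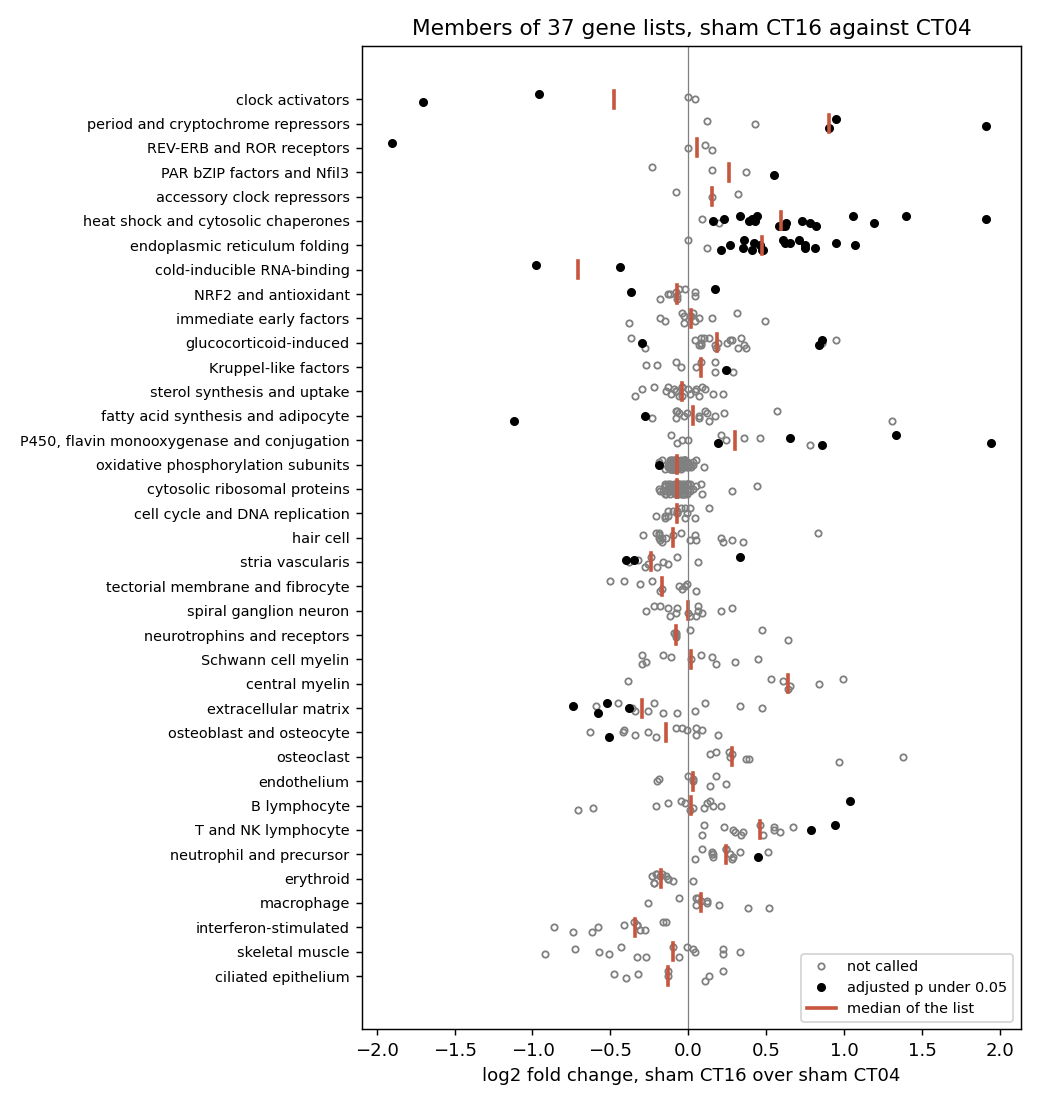
Each row is a gene list and each point a member, placed by its log2 fold change of sham CT16 over sham CT04; filled points passed an adjusted p of 0.05 and the red bar is the list's median over tested members. Pituitary and mucosal lists are not drawn because their values lie beyond the axis; the 2 chaperone lists are nearly all filled and to the right of 0, while hair cell, spiral ganglion and ribosomal lists hold no filled point.

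The other sham times place the 2 samples within the day. Of the 576 genes higher at CT16, 464 (80.6%) had their highest sham mean at CT16, and lowest means fell at CT08 for 244 and at CT04 for 193. Of the 614 lower genes, 550 had their lowest sham mean at CT16, while highest means fell at CT08 for 307 (50%) and at CT04 for 166 (27%). The choice of genes by these very samples favours extremes at CT04 and CT16, so the counts are a description. Hspa5 had means of 478, 417, 442, 925, 750 and 468 CPM from CT04 to CT24 in steps of 4 h, low and level until CT12 and high at CT16 and CT20. Hspb1 had 23.5, 23.5, 27.0, 62.0, 63.5 and 31.4 CPM, again high at CT16 and CT20.

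For 6 of the 7 called clock genes neither time held the highest or lowest sham mean, the exception being Cry1, highest at CT16. Per2 means were 23.7, 50.6, 107, 89.2, 47.5 and 22.4 CPM over the same times, highest at CT12. Nr1d1 means were 86.4, 181, 123, 23.2, 14.9 and 35.5 CPM, so CT04 lay on the rise and CT16 on the fall. Dbp, which did not differ between CT04 and CT16 beyond its spread, measured 128, 114 and 119 CPM in the libraries of CT08 and 14.3 to 17.3 CPM in those of CT20. A comparison of CT04 with CT16 alone thus passes over a gene whose level is similar at these 2 points of its cycle. Fkbp5 means were 38.8, 39.6, 112, 69.2, 40.1 and 47.4 CPM, and Tsc22d3 means 77.9, 97.2, 200, 141, 113 and 80.9 CPM, both highest at CT12. Lpl, by contrast, was highest at CT24 and CT04, at 159 and 147 CPM, and lowest at CT12, at 56.1 CPM.

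**Figure D4:**
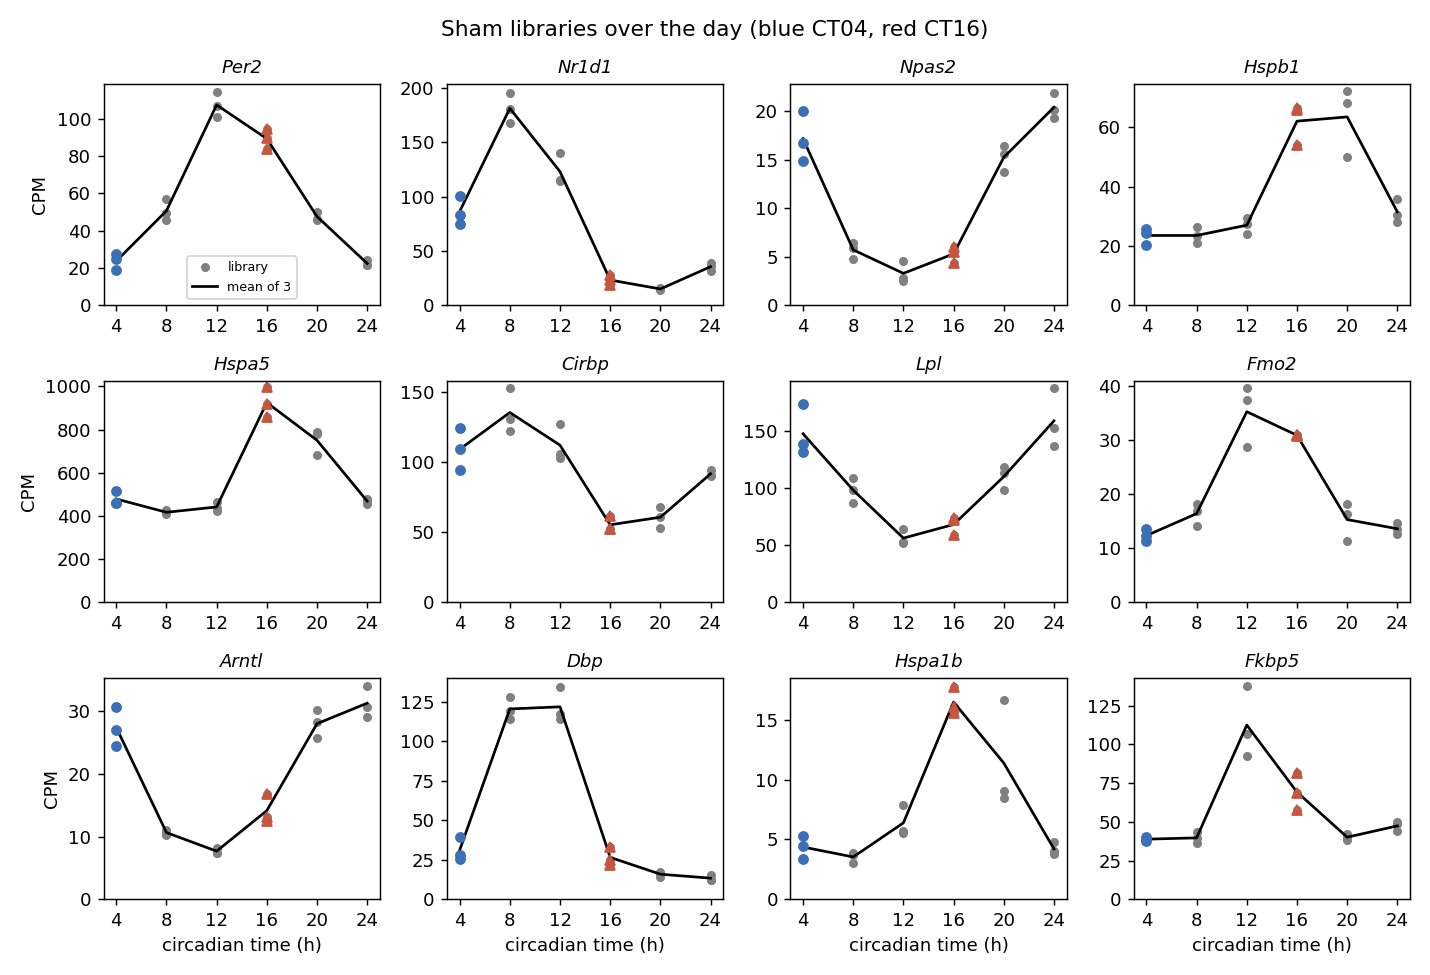
Each panel is a gene in the 18 sham libraries, with circadian time in h on the x axis and CPM on the y axis; points are libraries, the line joins the means of 3, and CT04 is blue and CT16 red. Hspa1b, Hspa5 and Hspb1 are high at CT16 and CT20, Cirbp is low there, and Dbp is near the same level at CT04 and CT16 with its peak between them.

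The same contrast in ADX mice asks how far these changes need the adrenals. It called 1831 genes (8.12%), from libraries separate from the sham ones. Of the sham calls, 539 were also called in ADX, all in the same direction, which is 45.3% of the sham and 29.4% of the ADX calls. The test of the difference itself called 0 genes (0%) with edgeR, where 1053 genes had an unadjusted p under 0.05, and 0 with DESeq2, where 849 did. The smallest adjusted p in edgeR was 0.835, so no change was shown to differ between sham and ADX at this depth and number of libraries. Of the 1190 sham calls, 1150 (96.6%) had the same sign in ADX and 651 were not called there.

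Heat shock genes were called higher in 16 of 20 cases in ADX, with a median of 0.41 against 0.60 in sham, and endoplasmic reticulum genes in 15 of 20, with 0.35 against 0.48. Hspa5 rose by 0.76 in ADX and by 0.95 in sham, a difference of 0.19 ± 0.10. Tsc22d3 rose by 0.81 in ADX and 0.86 in sham, a difference of 0.04 ± 0.17. The glucocorticoid-induced list held 9 higher calls in ADX and 2 in sham. Over all 22556 tested genes, 1174 were called higher in ADX and 576 in sham. The medians of the list were 0.26 in ADX and 0.18 in sham. Of its 24 members, 1 had an unadjusted p under 0.05 in edgeR for the difference. Per2 rose by 1.30 in ADX, a difference of 0.61 ± 0.19, and Nr1d1 fell by 1.28, a difference of -0.62 ± 0.31. Per3 differed by 0.29 in ADX (adjusted p = 0.27), where it measured 81.9 ± 24.4 CPM at CT04 and 100 ± 4.80 CPM at CT16 (SD, n = 3 libraries each). Its difference between statuses was 0.61 ± 0.22 and did not pass.

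The 10 genes of smallest p for the difference with a mean of at least 1 CPM were Mx1, Sp3os, Mir7028, Gm15663, Zfp952, Fcgr4, Stbd1, Shisal1, Has2 and Gm27599, none of which passed the adjusted threshold. Mx1, an interferon-induced antiviral protein, differed by -0.86 ± 0.29 in sham and by 1.06 in ADX. Its sham values were 8.64, 3.76 and 4.45 CPM at CT04, highest in the library with the highest interferon sum, and 3.4, 2.62 and 3.2 CPM at CT16. Without that library, CT04 replicate 1, the sham value was -0.42 (adjusted p = 0.538), and without CT04 replicate 2 it was -1.08 and passed (adjusted p = 0.0364). Stbd1, which tethers glycogen to membranes, measured 1.93, 2.15 and 2.55 CPM at sham CT04 and 4.3, 5.19 and 4.44 CPM at sham CT16, a rise of 1.06 ± 0.21, against -0.09 in ADX. Its sham call held in all 6 fits without 1 library (0.98 to 1.18). By list, the members with an unadjusted p under 0.05 for the difference (4.67% over all tested genes) were 10 of 20 endoplasmic reticulum, 8 of 12 interferon-stimulated, 6 of 14 neutrophil, 3 of 6 pituitary, 3 of 20 heat shock and 2 of 5 period and cryptochrome genes. All other lists had 2 or fewer. Sham and ADX medians were -0.34 and 0.48 for the interferon-stimulated list and 0.24 and 0.60 for the neutrophil list. The sham interferon median was -0.16 without CT04 replicate 1, and the sham neutrophil median was 0.09 without CT16 replicate 3.

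**Figure D5:**
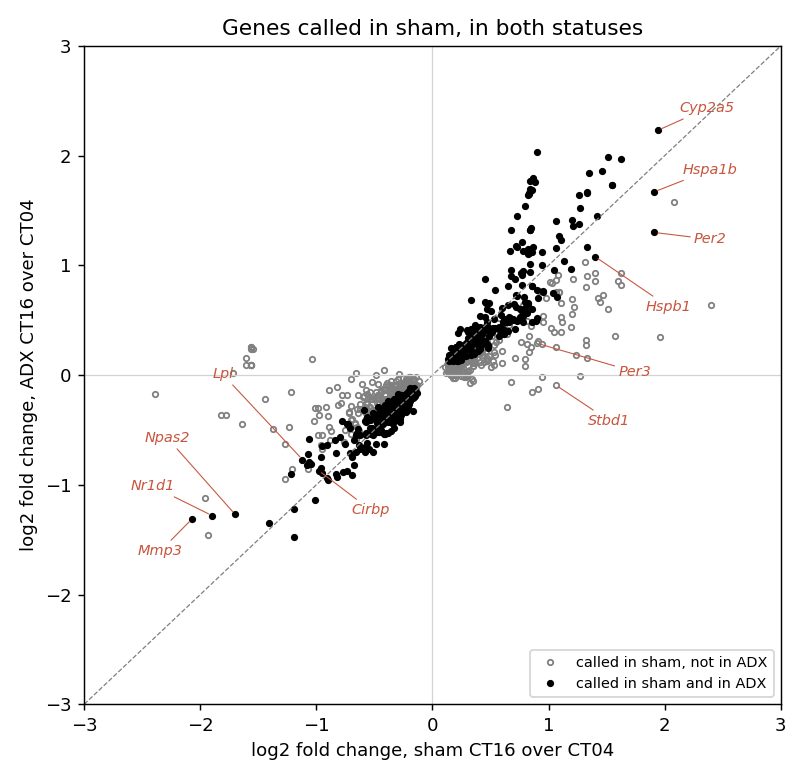
Each point is a gene called in sham, with the log2 fold change of CT16 over CT04 in sham on the x axis and in ADX on the y axis; filled points were also called in ADX and the dashed line marks equal change. Most points lie in the 2 quadrants of equal sign, and 8 called genes beyond 3 in size on either axis are not drawn.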

How the data were processed

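Per the labels, total RNA was made into stranded mRNA libraries (TruSeq) and sequenced as single reads of 100 bases in pools of 6 libraries, with no statement of which libraries were pooled. STAR 2.4.0i and mm10 come from the submitters' processing notes. For the counting program, annotation and strand setting no label or header gives a name, so reads of overlapping, antisense or near-identical genes may be shared. The deposited table holds raw counts per Ensembl gene for 39017 genes in 36 columns, not normalized by the authors, and gene length. Of these columns 30 carry a time 1 h earlier than the sample labels. The labelled times were used, and 0 further sample columns were present. Symbols came from GENCODE M21 (37607 IDs, 96.4%).

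The counts entered edgeR 4.0.16 in R 4.3.3 (TMM factors 0.981 to 1.03, filterByExpr, glmQLFit and glmQLFTest) in a model of 12 group means over all 36 libraries (24 residual degrees of freedom). The 16461 genes left out by the filter held 0.0779% of counts. P-values were adjusted by the Benjamini-Hochberg method over all 22556 tested genes, with a threshold of 0.05. CPM use TMM library sizes. Replicate pairs had a chi-square of 11.8 to 22.7 per degree of freedom, more than sampling noise gives, so none was counted as a duplicate. Nothing states that libraries came from separate animals, so the spread behind each p-value is that between these libraries and may be technical. Alternatives were DESeq2 1.42.0, RLE scaling, no filter, a replicate block, the sham or the 6 libraries alone, and the removal of single libraries. The members and gene lists were chosen with earlier results of these data known. Named genes were the 12 highest and 12 lowest called fold changes with a mean of at least 1 CPM and groups apart. All clock list members were named too, with up to 5 called members per list (or the 2 of highest CPM), 10 by the difference, and markers of possible carried-over tissue. Some list members are not reported here and were left out of the lists. Further list members were named after their values were seen. The scripts were tested on simulated data. Figures used matplotlib 3.10.9.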

Additional observations from a re-analysis of the deposited data

How the results depend on the processing

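The number of sham calls, 1190, was 1400 with DESeq2, 1181 with RLE scaling, 783 without the filter on low counts, 790 with the sham libraries alone and 367 with the 6 libraries alone. Leaving out 1 library gave 501 (without CT16 replicate 3) to 1068, and 518, 601 and 709 without CT04 replicate 1, CT16 replicate 2 and CT04 replicate 3. Fewer samples enter these fits. The ADX count, 1831, ran from 710 (without ADX CT16 replicate 3) to 1697, and was 792, 1032 and 1091 without ADX CT04 replicate 1, CT16 replicate 1 and CT04 replicate 3. The difference gave 0 calls in all alternatives run. Same-numbered deviations of sham CT04 and sham CT16 correlated at 0.113, 0.175 and 0.0211, and other-numbered ones at -0.166 to 0.0539. These weak values do not settle whether replicate numbers mark shared batches. With the replicate block, 1121 genes were called in sham, 1824 in ADX and 0 for the difference, and 5 of 72 called named genes were lost (Gh, Lox, Nfe2l2, Por and Prl) and 1 gained (Bhlhe41). Of 1491 alternative values of 125 named genes, 1273 kept direction and side of the threshold, 164 lost and 11 gained the call, and 43 changed sign. The sign changes of called genes were of transcripts called through CT16 replicate 3 alone. Log2 fold changes without 1 library ran from -0.04 to 10.62 (Bpifb1), -1.76 to 10.64 (Cga) and -1.76 to 8.80 (Fshb), the lowest each without CT16 replicate 3. Carried-over tissue as their source was not tested. All other sign changes were of uncalled genes near 0, with ranges without 1 library of -0.23 to 0.11 (Arntl2), -0.13 to 0.01 (Bhlhe40), -0.06 to 0.03 (Cdh5), -0.02 to 0.08 (Clock), -0.14 to 0.11 (Coch), -0.02 to 0.22 (Foxj1), -0.04 to 0.18 (Hmgcs1), -0.10 to 0.08 (Jun), -0.13 to 0.31 (Mbp), -0.09 to 0.19 (Mki67), -0.07 to 0.08 (Mybpc2), -0.04 to 0.21 (Nr1d2), -0.07 to 0.13 (Ntrk2), -0.10 to 0.07 (Rora), -0.20 to 0.07 (Slc4a11), -0.23 to 0.00 (Snap25), -0.03 to 0.19 (Top2a). Arntl2 was -0.00 with RLE scaling and in the sham libraries alone, and -0.01 without the filter and with the replicate block. Mki67 and Ntrk2 were -0.00 without the filter. The cause of these changes was not tested. Of 468 alternative values of 39 list medians, 450 stayed within the spread between replicates.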
